A study of Homo sapiens with 12 samples.

Results

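Chromatin modifier and remodeller genes are described here in MOLT4, an established human T lymphoblast line of leukaemic origin, under treatment with 955 or SNS-032. The members are the protein-coding genes of the authors' deposited table whose RefSeq symbol starts with KDM, KMT, SETD, HDAC, SIRT, SMARC, ARID or PHF, or with BRD, CHD, KAT or ING and a digit. This rule found 57 genes among the 5759 in the table, of which 5270 are annotated as protein-coding. RefSeq holds 133 protein-coding genes with such names, and those outside the 57 are not analysed here. Wild-type cells fell into 4 groups of 3 samples: a DMSO vehicle group (6 h), a short 955 group (0.1 µM, 1 h), a long 955 group (0.1 µM, 6 h) and an SNS-032 group (1 µM, 6 h). SNS-032 is a cyclin-dependent kinase inhibitor whose targets include CDK9, which drives RNA polymerase II elongation, and 955 joins it to the plant-derived electrophile piperlongumine. The comparisons ask how 955 acts on transcription and how that relates to its parent inhibitor. The doses of the compounds differ, and no vehicle group of 1 h was used, so at 1 h treatment and time in culture cannot be told apart.

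DNA is wrapped around histones, and the genes described here encode proteins that write, erase or read chemical marks on histone tails or that move nucleosomes. Lysine methyltransferases and acetyltransferases add marks. Demethylases, histone deacetylases and sirtuins remove them. PHD finger, bromodomain and ING proteins bind modified or unmodified histone tails, and remodellers of the BAF, ISWI and CHD families use ATP to slide or evict nucleosomes. Several of these genes, among them PHF6 and ARID1A, are recurrently mutated in leukaemia or other cancers.

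For each gene the authors' deposited table gives a log2 fold change against DMSO in 3 comparisons, and beside it F, p and the false discovery rate (FDR). It holds no values per sample, so the spread is given as an implied standard error, the size of the log2 fold change divided by root F. Sequencing depth is unknown. A gene was past the threshold at an FDR under 0.05 with a log2 fold change of 1 or more in size. In at least 1 comparison 5757 of the 5759 listed genes met this, so members are in the table because they changed, and their counts are read only against those of all listed genes. Levels, averaged across the samples in the authors' deposited table, were 1.01 to 8.57 (log2 CPM) for the members, with a median of 5.56 against 4.15 for all listed genes. Of 19 T lymphoblast markers, 8 were listed, with average levels of 3.74 to 8.29. Of the myeloid markers 0 of 6 were listed, and of the erythroid markers 0 of 4. Absence from a table of changed genes does not show that a marker was silent.

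After 6 h of 955, 20 members rose and 30 fell in the authors' deposited table, while 7 were not past the threshold. HDAC5 (log2 fold change 2.94), KDM7A (2.69) and CHD3 (2.57) were highest, and KDM4D (-3.55), KAT5 (-2.44) and PHF23 (-2.38) were lowest. The higher members made up 35.1% of the 57 and the lower members 52.6%, against 35.2% and 50.1% of all listed genes, so the shares lay near the background. After 6 h of SNS-032, 23 members rose and 25 fell in the authors' deposited table, or 40.4% and 43.9%, against 37.8% and 52.5% of all listed genes. In either direction 85.3% of listed genes were past the threshold with 955 and 90.2% with SNS-032. The median log2 fold change of the members was -1.09 with 955 and -0.93 with SNS-032, against -1.03 and -1.07 for all listed genes. Both 6 h comparisons share the same DMSO samples. Implied standard errors after 6 h of 955 ran from 0.11 to 0.85 with a median of 0.20. The plot of all members shows these values by role.

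**Figure D1:**
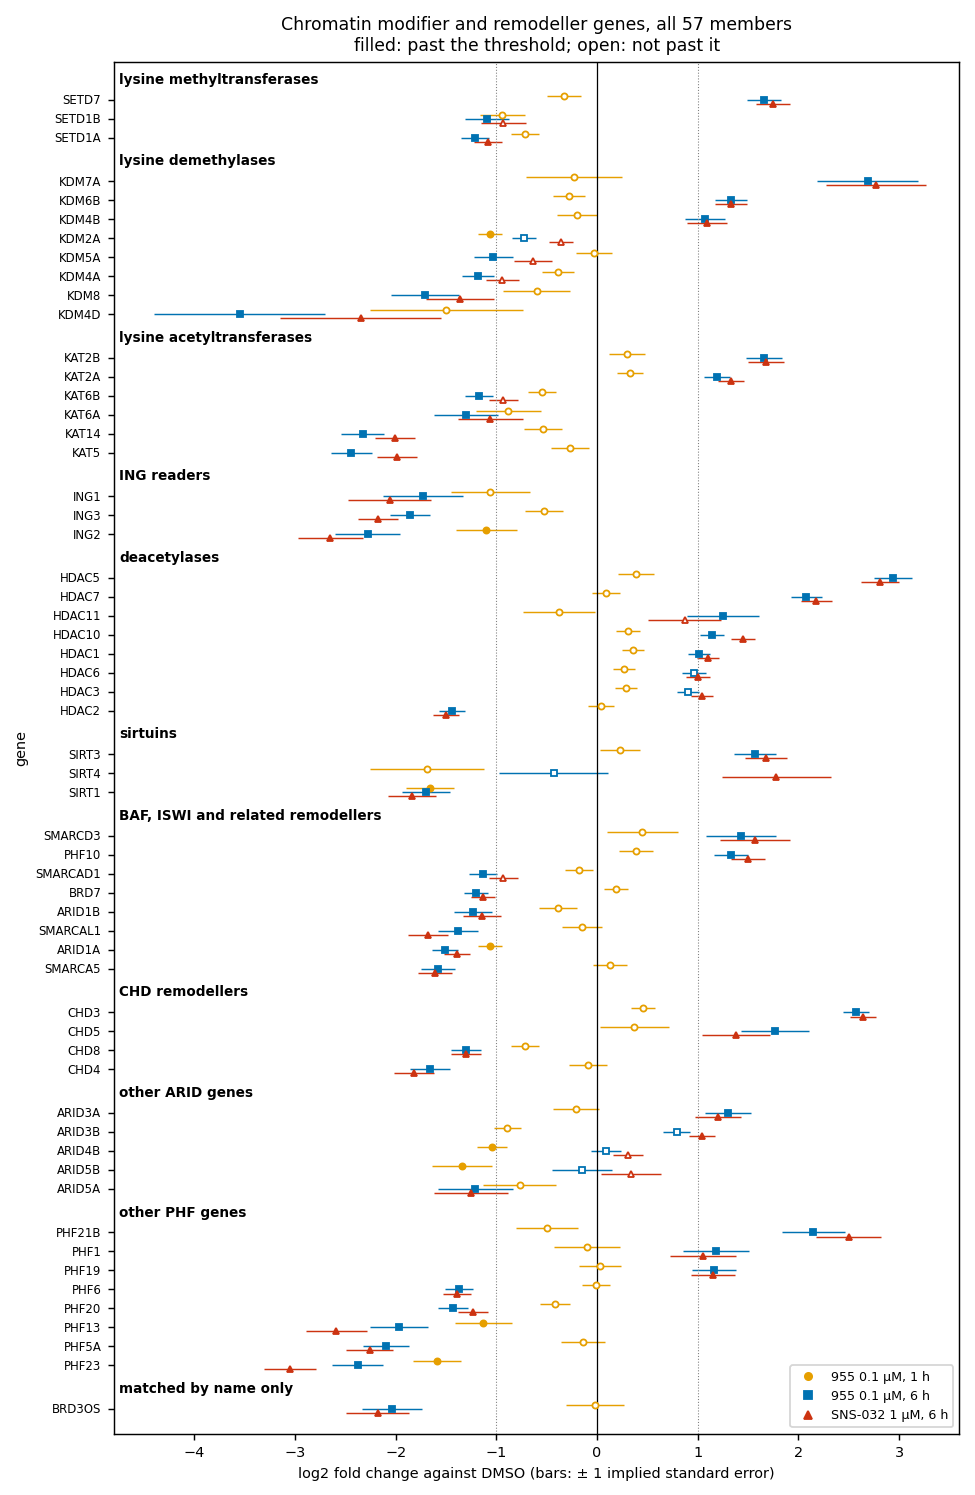
Log2 fold change against DMSO (x axis) of each of the 57 members (y axis, grouped by role) after 955 at 0.1 µM for 1 h (circles) or 6 h (squares) and SNS-032 at 1 µM for 6 h (triangles), with bars of 1 implied standard error and filled symbols past the threshold. Under the authors' scaling, 20 members rose and 30 fell with 955 at 6 h, and 8 were past the threshold at 1 h.

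These directions follow the authors' scaling of the libraries. The 13 mitochondrially encoded mRNAs, which another polymerase makes, had median log2 fold changes of 2.07 with 955 and 2.35 with SNS-032 at 6 h. When their median was set to 0, none of the 57 members was higher past the threshold, and 39 were lower with 955 and 44 with SNS-032. These are 68.4% and 77.2% of the members, against 66.4% and 72.1% of all listed genes, of which 2.47% and 2.01% were higher. Of the 20 members higher with 955, 15 then had values below 0, while HDAC5 (0.86), KDM7A (0.62), CHD3 (0.50), PHF21B (0.08) and HDAC7 (0.01) stayed above it. When the median listed gene was set to 0 instead, a shift of -1.03 with 955 and -1.07 with SNS-032, the split became 24 higher and 7 lower with 955 and 26 higher and 6 lower with SNS-032. With 955 this is 42.1% higher and 12.3% lower, against 41% and 14.3% of all listed genes, and with SNS-032 45.6% and 10.5%, against 41.2% and 16.3%. The 7 lower with 955 were KDM4D, KAT5, PHF23, KAT14, ING2, PHF5A and BRD3OS. Others that fell under the authors' scaling came near 0, such as SETD1A (-0.18), SETD1B (-0.07), KDM4A (-0.15), KDM5A (-0.00), KAT6B (-0.14) and SMARCAD1 (-0.10). PHF13 (-0.95) and ING3 (-0.84) lay further down. On each scale the members' shares at 6 h lay near those of all listed genes. The order of the members and the distance between any pair of them do not depend on the scaling.

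**Figure D2:**
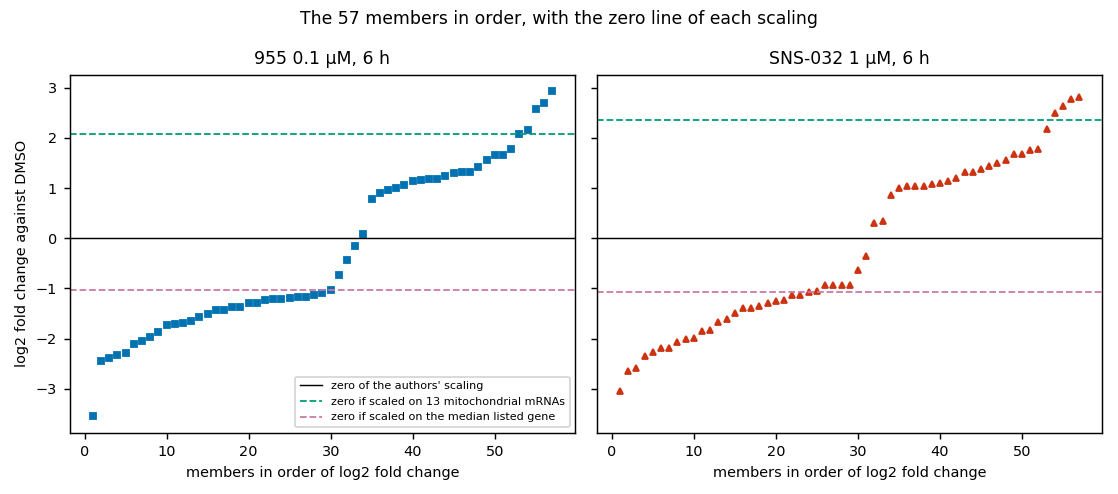
The 57 members in order of their log2 fold change against DMSO (y axis) after 6 h of 955 (left) or SNS-032 (right), with the zero line of the authors' scaling, of scaling on 13 mitochondrial mRNAs and on the median listed gene. With 955 the mitochondrial line at 2.07 leaves 5 members above it, and the line of the median listed gene lies at -1.03.

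Of the lysine methyltransferases, SETD1A and SETD1B, the catalytic subunits of the SET1/COMPASS complexes that methylate histone H3 lysine 4, fell with 955, and SETD7, a monomethyltransferase of histone and other proteins, rose. SETD1A (gene ID 9739) had values of -0.72 after 1 h of 955, -1.21 after 6 h (implied standard error 0.14, FDR 2e-07) and -1.08 under SNS-032 (FDR 9.05e-07) in the authors' deposited table. SETD1B (23067) had -0.94, -1.09 (0.22, FDR 0.00149) and -0.93 (FDR 0.00448) in the same order, so that its value with SNS-032 was under the fold-change bound. With the median listed gene set to 0, SETD1A and SETD1B came to -0.18 and -0.07 with 955 and to -0.01 and 0.14 with SNS-032. SETD7 (80854) had -0.33, 1.66 (0.17, FDR 2.59e-08) and 1.75 (FDR 1e-08) in the authors' deposited table, and -0.41 and -0.59 at 6 h under mitochondrial scaling. None of the KMT genes is among the 57.

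Of the 8 lysine demethylase genes, 3 were higher and 4 lower after 6 h of 955 and 3 higher and 2 lower after SNS-032 in the authors' deposited table. With 955 this is 37.5% and 50%, near the 35.2% and 50.1% of all listed genes. With SNS-032 it is 37.5% and 25%, against 37.8% and 52.5%. KDM7A (80853), which removes methyl groups from histone H3 lysines 9 and 27, was at 2.69 with 955 (implied standard error 0.50, FDR 0.00288) and 2.77 under SNS-032 (FDR 0.00233), with the widest error among the 20 members that rose with 955. KDM6B (23135), a demethylase of H3 lysine 27, was at -0.28 after 1 h, 1.33 after 6 h of 955 (0.16, FDR 3.26e-07) and 1.33 under SNS-032 in the authors' deposited table, and at -0.74 and -1.02 at 6 h under mitochondrial scaling. Within the KDM4 enzymes, which act on H3 lysines 9 and 36, KDM4B (23030) rose to 1.07 and 1.09, while KDM4A (9682) fell to -1.18 with 955 and was at -0.94 under SNS-032 in the authors' deposited table. KDM4D (55693) was at -3.55 and -2.35, but at an average level of only 1.23 (log2 CPM) and with an implied standard error of 0.85 with 955. KDM5A (5927), an eraser of H3 lysine 4 methylation, was at -1.03 with 955 (FDR 0.000194) and -0.64 under SNS-032, and KDM8 (79831), a JmjC-domain protein, fell to -1.71 and -1.36 in the authors' deposited table. KDM2A (22992), an H3 lysine 36 demethylase, was past the threshold at 1 h alone and is described with that comparison.

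Among the acetyltransferases, the SAGA and ATAC enzymes KAT2A and KAT2B rose and the MYST enzymes KAT5, KAT6A and KAT6B fell with 955. KAT2A (2648) was at 0.33 after 1 h, 1.19 after 6 h of 955 (implied standard error 0.13, FDR 6.03e-08) and 1.33 under SNS-032 (FDR 8.79e-09) in the authors' deposited table. KAT2B (8850) was at 0.30, 1.66 (0.18, FDR 5.52e-08) and 1.68 (FDR 4.02e-08). Both were below 0 under mitochondrial scaling, at -0.88 and -0.41 with 955. KAT5 (10524), also called TIP60, was at -0.27 after 1 h and fell to -2.44 after 6 h of 955 (0.20, FDR 7.12e-10) and -1.99 under SNS-032 (FDR 1.14e-08) in the authors' deposited table. KAT14 (57325), a scaffold subunit of ATAC, followed it with -0.54, -2.33 (0.21, FDR 2.64e-09) and -2.01. KAT6A (7994) and KAT6B (23522) were at -1.30 (FDR 0.0124) and -1.17 (FDR 4.12e-07) with 955 and at -1.06 (FDR 0.033) and -0.93 (FDR 9.95e-06) under SNS-032 in the authors' deposited table. KAT6A came to 0.01 with SNS-032 when the median listed gene was set to 0.

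The 3 listed ING genes, which encode PHD finger readers of H3 lysine 4 methylation in acetyltransferase and deacetylase complexes, fell with both compounds. ING2 (3622) went from -1.10 after 1 h to -2.28 after 6 h of 955 (implied standard error 0.32, FDR 2.76e-06) and was at -2.65 under SNS-032 in the authors' deposited table. ING3 (54556), a subunit of the KAT5 complex, was at -0.53, -1.86 (0.20, FDR 4.78e-08) and -2.18. ING1 (3621) was at -1.06 after 1 h with an FDR of 0.233, and at -1.73 (0.40, FDR 0.00653) and -2.06 (FDR 0.00225) at 6 h in the authors' deposited table.

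Histone deacetylase genes were mostly higher under the authors' scaling, with 5 of 8 past the threshold upwards and 1 downwards after 6 h of 955, and 6 and 1 after SNS-032. The higher share was 62.5% with 955 and 75% with SNS-032, against 35.2% and 37.8% of all listed genes. The median log2 fold change of the 8 was 1.07 with each compound, against -1.03 and -1.07 for all listed genes. HDAC5 (10014) and HDAC7 (51564), class IIa enzymes that shuttle between nucleus and cytoplasm, rose most. HDAC5 was at 0.39 after 1 h, 2.94 after 6 h of 955 (implied standard error 0.19, FDR 1.24e-10) and 2.81 under SNS-032 (FDR 1.59e-10) in the authors' deposited table. HDAC7 was at 0.09, 2.08 (0.15, FDR 7.5e-11) and 2.18 (FDR 2.87e-11), and under mitochondrial scaling at 0.01 with 955 and -0.17 with SNS-032. HDAC1 (3065), the class I catalytic subunit of NuRD, Sin3 and CoREST, was at 0.36 after 1 h (FDR 0.0752), 1.01 after 6 h of 955 (0.11, FDR 1.1e-07) and 1.10 under SNS-032 (FDR 2.61e-08) in the authors' deposited table, and at -1.06 and -1.25 under mitochondrial scaling. Its partner in the same complexes, HDAC2 (3066), was at 0.04 after 1 h and fell to -1.44 (0.13, FDR 4.14e-09) and -1.50 (FDR 1.93e-09). HDAC3 (8841), the NCoR enzyme, and HDAC6 (10013), a cytoplasmic tubulin deacetylase, were just under the fold-change bound with 955, at 0.90 (FDR 4.99e-07) and 0.96 (FDR 3.09e-07), and past it with SNS-032, at 1.04 and 1.00, in the authors' deposited table. HDAC10 (83933), a polyamine deacetylase, rose to 1.14 and 1.45, and HDAC11 (79885) was at 1.25 with 955 (FDR 0.0101) and 0.87 under SNS-032 (FDR 0.08). Under mitochondrial scaling HDAC5 alone of the 8 was above 0 with SNS-032, at 0.47, and HDAC5 and HDAC7 with 955.

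The sirtuins, NAD-dependent deacylases, moved apart. SIRT1 (23411), the nuclear enzyme, was at -1.66 after 1 h (implied standard error 0.24, FDR 0.000127), -1.70 after 6 h of 955 (FDR 4.18e-06) and -1.84 under SNS-032 (FDR 1.31e-06) in the authors' deposited table. SIRT3 (23410), a mitochondrial deacetylase, was at 0.23, 1.57 (0.21, FDR 1.19e-06) and 1.68 (FDR 4.13e-07), and at -0.50 and -0.67 at 6 h under mitochondrial scaling. SIRT4 (23409), also mitochondrial, had the lowest average level of the members, 1.01, and values of -1.69 (FDR 0.109), -0.43 (FDR 0.745) and 1.78 (FDR 0.0132) in the authors' deposited table.

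Genes of the BAF and ISWI remodellers and their relatives were mostly lower under the authors' scaling. With 955 at 6 h, 2 of 8 were higher and 6 lower, and with SNS-032 2 were higher and 5 lower. These shares are 25% and 75% with 955, against 35.2% and 50.1% of all listed genes. With SNS-032 they are 25% and 62.5%, against 37.8% and 52.5%. The median of the 8 was -1.22 with 955 and -1.14 with SNS-032, against -1.03 and -1.07 for all listed genes. With the median listed gene set to 0, the 6 genes lower with 955 lay between -0.56 and -0.10. ARID1A (8289), the DNA-binding subunit of canonical BAF, was at -1.06 after 1 h (implied standard error 0.12, FDR 1.31e-05), -1.51 after 6 h of 955 (FDR 1.05e-09) and -1.39 with SNS-032 (FDR 3.27e-09). Its alternative subunit ARID1B (57492) was at -0.39 after 1 h (FDR 0.436), -1.23 (FDR 5.65e-05) and -1.14 (FDR 0.000118) in the authors' deposited table. BRD7 (29117), a bromodomain subunit of PBAF, was at 0.19, -1.20 (FDR 2.07e-08) and -1.13, and SMARCA5 (8467), the ISWI ATPase, at 0.13, -1.58 (FDR 2.95e-07) and -1.61. SMARCAL1 (50485), which rewinds DNA at stalled forks, fell to -1.38 and -1.68, and SMARCAD1 (56916) was at -1.13 and -0.93 in the authors' deposited table. PHF10 (55274) and SMARCD3 (6604), accessory subunits of PBAF and BAF, rose to 1.33 (FDR 6.41e-07) and 1.43 (FDR 0.0106) with 955 and to 1.50 and 1.57 with SNS-032, and both were below 0 under mitochondrial scaling.

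Within the groups of close relatives compared below, CHD3 and CHD4 held the widest contrast at 6 h between well-expressed genes. CHD3 (1107), an ATPase of NuRD, was at 0.46 after 1 h (FDR 0.0266), 2.57 after 6 h of 955 (implied standard error 0.13, FDR 3.14e-13) and 2.64 under SNS-032 (FDR 1.26e-13) in the authors' deposited table. CHD4 (1108), the alternative NuRD ATPase, was at -0.09 after 1 h and fell to -1.66 (0.20, FDR 8.94e-06) and -1.82 (FDR 3.46e-06). CHD5 (26038), the third of this subfamily, was at 1.77 (FDR 0.000209) and 1.38 (FDR 0.00243) at an average level of 2.17, and CHD8 (57680) fell from -0.72 after 1 h (FDR 0.00321) to -1.30 with each compound in the authors' deposited table. Under mitochondrial scaling CHD3 stayed above 0 with both compounds, at 0.50 and 0.30, and CHD5 was below it, at -0.30 and -0.96.

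Of the other ARID genes, which encode AT-rich interaction domain proteins, ARID3A (1820) rose to 1.30 (FDR 8.66e-05) and 1.20 (FDR 0.000206) and ARID5A (10865) fell to -1.21 (FDR 0.027) and -1.25 (FDR 0.022) at 6 h in the authors' deposited table. ARID3B (10620) changed sign, from -0.89 after 1 h (FDR 0.000122) to 0.79 after 6 h of 955 (FDR 2.29e-05) and 1.04 with SNS-032 (FDR 4.52e-07). Under mitochondrial scaling ARID3A and ARID3B were below 0 in both 6 h comparisons. The 8 remaining PHF genes gave 3 higher and 5 lower with each compound, or 37.5% and 62.5%. Among all listed genes these shares were 35.2% and 50.1% with 955 and 37.8% and 52.5% with SNS-032. PHF23 (79142) was at -1.59 after 1 h (FDR 0.000189), -2.38 after 6 h of 955 (implied standard error 0.25, FDR 3.48e-08) and -3.05 under SNS-032 (FDR 9.75e-10) in the authors' deposited table. PHF13 (148479), a reader of H3 lysine 4 methylation, was at -1.13, -1.97 (FDR 1.19e-05) and -2.59 (FDR 4.37e-07). PHF6 (84295), a tumour suppressor of T-cell acute lymphoblastic leukaemia, was at -0.01 after 1 h and fell to -1.37 (FDR 3.48e-08) and -1.39 (FDR 2.34e-08) in the authors' deposited table. PHF20 (51230), a subunit of the MOF acetyltransferase complex, fell to -1.43 and -1.23. PHF1 (5252) and PHF19 (26147), Polycomb-like partners of PRC2, rose to 1.18 and 1.16 with 955 and to 1.05 and 1.15 under SNS-032 in the authors' deposited table, and were below 0 under mitochondrial scaling. PHF21B (112885) rose to 2.15 (FDR 5.14e-06) and 2.50 (FDR 6.14e-07). The name rule also takes in PHF5A (84844), a splicing factor of the SF3b complex, at -2.10 and -2.26, and BRD3OS (266655), a gene opposite BRD3 and not a bromodomain gene, at -2.04 and -2.18.

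At least 2 genes were listed in 12 groups of close relatives, and their distances are free of the scaling. After 6 h of 955, 4 of the 12 groups had members that rose and members that fell in the authors' deposited table, 2 groups had all their listed genes higher and 4 had all lower. CHD3 lay 4.24 above CHD4 on the log2 scale after 955 and 4.46 after SNS-032, but 0.54 after 1 h. HDAC1 lay 2.45 and 2.60 above HDAC2 at 6 h and 0.32 at 1 h. SIRT3 lay 3.26 above SIRT1 after 955, and KDM4B lay 4.62 above KDM4D after 955 and 3.44 after SNS-032. By contrast KAT6A and KAT6B were within 0.13 of each other with each compound, SETD1A and SETD1B within 0.12 and 0.15, and ARID1A and ARID1B within 0.28 and 0.25. No test was made between genes, since the samples are shared. The plot of paralog groups shows the distances beside the implied standard errors.

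**Figure D3:**
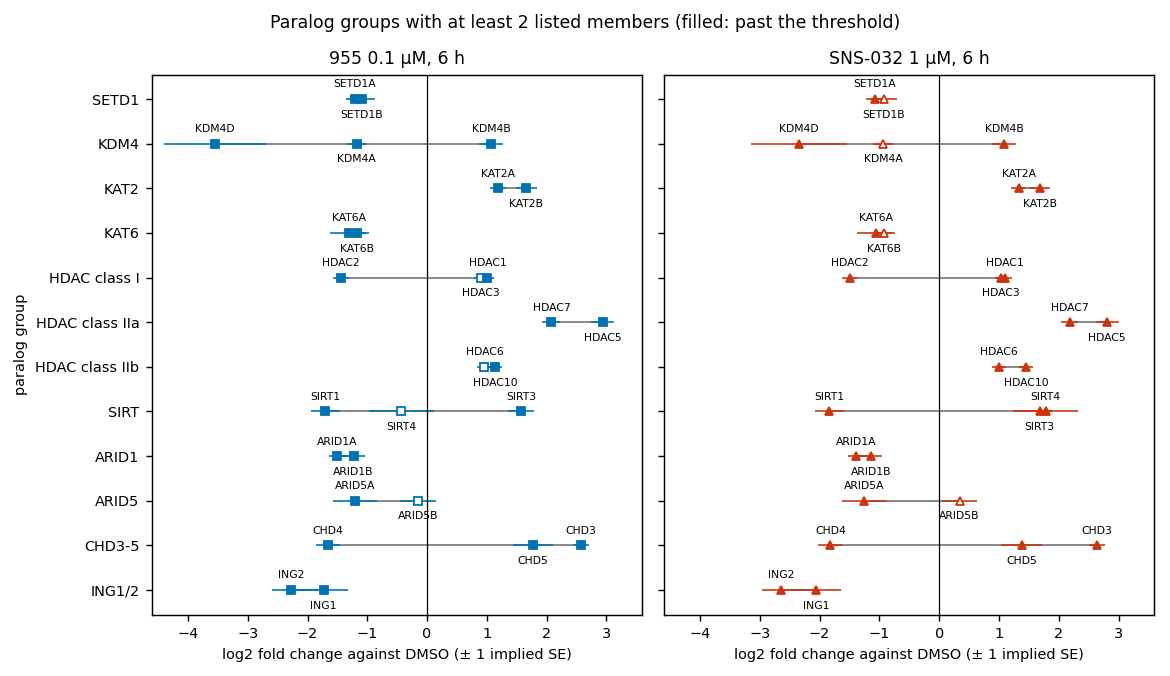
Log2 fold change against DMSO (x axis) of the listed genes of 12 paralog groups (y axis) after 6 h of 955 (left) or SNS-032 (right), with bars of 1 implied standard error, filled symbols past the threshold and a line joining the genes of a group. CHD3 and CHD4 lie 4.24 apart and HDAC1 and HDAC2 2.45 apart after 955, whereas the KAT6, SETD1 and ARID1 genes lie together.

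After 1 h of 955, 8 members fell in the authors' deposited table and 0 rose. This is 14% of the 57, against 7.71% of all listed genes lower, 0.729% higher and 8.44% in either direction. They were SIRT1 (-1.66), PHF23 (-1.59), ARID5B (-1.34), PHF13 (-1.13), ING2 (-1.10), KDM2A (-1.06), ARID1A (-1.06) and ARID4B (-1.04). Without the PHF and ARID genes 3 of 41 remained. The median of all members was -0.27, against -0.05 for all listed genes. At an FDR under 0.05 without the fold-change bound 14 of the 57 members passed, 13 lower and CHD3 higher. Of all listed genes 16.6% passed, 11.9% lower and 4.72% higher. Under mitochondrial scaling, a shift of 0.67, 27 members (47.4%) were lower and 0 higher, against 30.7% and 0.278% of all listed genes.

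Upstream sequences of these 8 genes were read because they moved together at 1 h. In the RefSeq promoter table (GRCh38.p14) 47 of the 57 members had an entry, and the 250 bases before the first start listed for each gene were searched on both strands for the GC box GGGCGG, the CCAAT box, the TATA box as TATAAA, the core of ETS sites as CCGGAA, the E-box CACGTG and the cyclic AMP response element as TGACGTCA. GGGCGG was found in 4 of the 8, against 61.7% of the 47 members, 66.3% of listed protein-coding genes and 56% of all RefSeq protein-coding genes. CACGTG was found in 1 of the 8 (8.51%, 8.62% and 7.84%), TATAAA in 1 (2.13%, 6.08% and 9.23%), CCAAT in 1 (25.5%, 36.4% and 34.5%), CCGGAA in 1 (21.3%, 26.9% and 19.3%) and TGACGTCA in 0 (2.13%, 3.01% and 2.32%). A match is a string of letters and not a bound site. For ING2, ARID4B and PHF23 the first listed start lies inside the annotated RefSeq gene. The bases searched for these genes are thus not upstream of the whole gene. For ARID5B all 150 bases just before the start lie in annotated exons, and the 1 TATAAA match lies within them. The 150 bases just before the start are shown for the 4 genes where they overlap no annotated exon, 5′ to 3′ on the gene's strand, with matches to these motifs on either strand in capitals. SIRT1 is at chr10:67884506-67884655, ARID1A at chr1:26695865-26696014, ING2 at chr4:183505948-183506097 and KDM2A at chr11:67119113-67119262, all on the plus strand.
SIRT1: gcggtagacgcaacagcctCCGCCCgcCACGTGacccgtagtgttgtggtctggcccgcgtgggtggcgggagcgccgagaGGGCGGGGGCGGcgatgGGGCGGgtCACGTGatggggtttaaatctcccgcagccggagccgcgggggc
ARID1A: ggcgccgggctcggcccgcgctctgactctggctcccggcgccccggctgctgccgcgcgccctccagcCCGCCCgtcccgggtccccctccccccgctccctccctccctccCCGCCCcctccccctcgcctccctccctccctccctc
ING2: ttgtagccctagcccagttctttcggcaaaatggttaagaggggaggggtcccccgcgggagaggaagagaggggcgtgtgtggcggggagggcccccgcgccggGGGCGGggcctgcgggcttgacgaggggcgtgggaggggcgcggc
KDM2A: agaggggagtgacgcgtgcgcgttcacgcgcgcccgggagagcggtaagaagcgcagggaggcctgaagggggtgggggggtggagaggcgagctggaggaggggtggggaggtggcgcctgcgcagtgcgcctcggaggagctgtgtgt
SIRT1 held 4 GGGCGG and 2 CACGTG matches within these bases, ARID1A 2 and ING2 1 GGGCGG match, and KDM2A none of the 6 motifs. CG dinucleotides numbered 20, 17, 14 and 15.

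The direct contrast of 955 at 6 h with 955 at 1 h, made from the difference of the fold changes, found 34 of 57 members past the threshold (adjusted p under 0.05 and absolute difference of at least 1), 19 higher and 15 lower at 6 h. Among all listed genes 62.7% were past it, 27% higher and 35.6% lower, so the members' 59.6% lay near the background. The split follows the scaling, with 3 members higher and 31 lower under mitochondrial scaling (3.58% and 58.1% of all listed genes) and 27 higher and 2 lower on the median listed gene (44.3% and 8.49%). Members are listed for a change against DMSO in one of the treated groups, so this contrast is not independent of how they entered the table. For the 8 members lower at 1 h the differences are a description with no test, since the 1 h value chose them, and ARID4B, ARID5B and KDM2A are in the table through that value alone. ARID4B (51742), a subunit of the Sin3 deacetylase complex, went from -1.04 to 0.09, a difference of 1.12 under the authors' scaling, -0.27 under mitochondrial scaling and 2.10 on the median listed gene. ARID5B (84159), part of a demethylase complex and a regulator in T-cell leukaemia, went from -1.34 to -0.15, with differences of 1.18, -0.21 and 2.16 in the same order. KDM2A went from -1.06 to -0.73, with differences of 0.34, -1.06 and 1.31, and SIRT1 from -1.66 to -1.70, with -0.03, -1.43 and 0.94. The direction of these 4 members between the times thus depends on the scaling. It does so too for ARID1A (-0.45, -1.85 and 0.52), PHF13 (-0.84, -2.24 and 0.13) and PHF23 (-0.79, -2.19 and 0.18), while ING2 lay lower at 6 h on each scale (-1.18, -2.58 and -0.21).

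**Figure D4:**
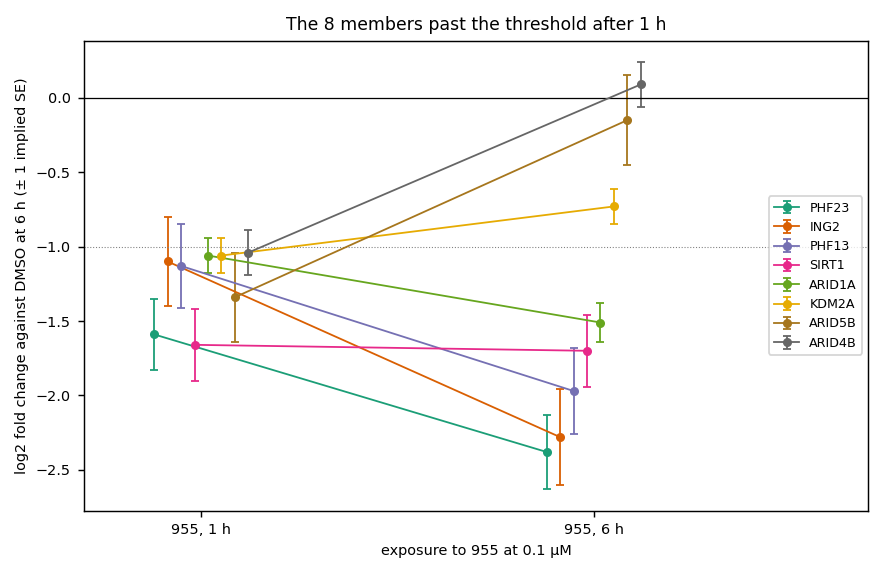
Log2 fold change against DMSO at 6 h (y axis) of the 8 members past the threshold after 1 h of 955 at 0.1 µM, at 1 h and 6 h (x axis), with bars of 1 implied standard error. Under the authors' scaling ARID4B and ARID5B lie near 0 at 6 h, SIRT1 differs by -0.03 between the times, and ING2 and PHF23 lie below -2.

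The 20 members higher after 6 h of 955 had values between -0.50 and 0.46 at 1 h, and the 30 lower had values between -1.66 and 0.19. The largest differences between 6 h and 1 h were those of KDM7A (2.92, standard error 0.49), PHF21B (2.66, 0.31), HDAC5 (2.55, 0.18), KAT5 (-2.17, 0.19) and CHD3 (2.12, 0.12). These genes passed the threshold in both 6 h comparisons with DMSO and not at 1 h. Their 6 h values thus put them in the table, and the differences are a description with no test. Of the 19 differences above 0, those of KDM7A, PHF21B and HDAC5 stayed past the threshold under mitochondrial scaling, at 1.52, 1.26 and 1.15.

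Between 955 and SNS-032 at 6 h, 1 of 57 members was past the threshold in the direct contrast, or 1.75%, against 1.11% of all listed genes (0.26% lower and 0.851% higher with 955). The contrast compares the treatments as given, at 0.1 µM and 1 µM, and not the compounds at a matched dose. The member was SIRT4, lower with 955 by a difference of -2.21, with a standard error of 0.54, at the lowest average level of all members. SIRT4 is in the table only through its value with SNS-032, so that value also chose it, and its difference is a description with no test. If the shared control was ignored in the standard error, or a level of at least 3 was asked, 0 members passed. The differences of the 57 had a median of -0.09, and 53 were under 0.5 in absolute size. For 46 members the 95% interval of the difference lay within -1 and 1. HDAC5 differed by 0.12 (-0.27 to 0.51), CHD3 by -0.07 (-0.33 to 0.19), HDAC2 by 0.06 (-0.22 to 0.33), ARID1A by -0.12 (-0.38 to 0.14) and PHF6 by 0.03 (-0.27 to 0.32). The largest values that were not past the threshold were KDM4D at -1.20 (-3.00 to 0.60), PHF23 at 0.68 (0.15 to 1.20, adjusted p 0.189) and PHF13 at 0.62 (0.01 to 1.23, adjusted p 0.325). PHF23 and PHF13 thus lay lower with SNS-032 in value, and KAT5, at -0.44 (-0.85 to -0.04, adjusted p 0.293), lower with 955, without passing the adjustment.

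Other chromatin genes, outside the name rule, came from 9 lists of complex subunits, of which 91 of 232 genes were in the table. After 6 h of 955, 13 rose and 65 fell in the authors' deposited table, or 71.4% lower against 50.1% of all listed genes, with a median of -1.29. After SNS-032 15 rose and 68 fell, or 16.5% and 74.7%, against 37.8% and 52.5% of all listed genes. After 1 h of 955 0 rose and 5 fell, or 5.49% lower against 7.71%. The lists were counted under the authors' scaling alone. Counts of single lists that follow are for 6 h of 955, where 35.2% of all listed genes were higher and 50.1% lower. Subunits of COMPASS and related complexes, only some of them partners of SETD1A and SETD1B, had 0 of 7 higher and 6 lower with 955. The lowest was WDR82 (80335) at -3.48 (FDR 3.56e-14), and NCOA6 at -1.0 was the least changed past the threshold. Acetyltransferase genes and scaffolds had 1 of 17 higher and 13 lower, from YEATS4 (8089) at -2.77 to YEATS2 (55689) at 1.40 in the authors' deposited table. INO80, SRCAP and ISWI genes had 2 of 13 higher and 11 lower, from VPS72 (6944), a chaperone of H2A.Z, at -3.28 to CECR2 (27443) at 3.22. NuRD, Sin3 and CoREST scaffolds had 1 of 11 higher and 9 lower, from BRMS1 (25855) at -2.54 to ZMYM2 (7750) at 1.31, while of their enzymes HDAC1 and CHD3 rose and HDAC2 and CHD4 fell. Polycomb genes had 4 of 15 higher and 8 lower in the authors' deposited table, and PCGF2 (7703) was highest at 3.75 (FDR 0.00094). Other BAF subunits had 3 of 10 higher and 5 lower, from ACTB (60) at -2.05 to SS18L1 (26039) at 1.62. The remaining lists gave 1 of 7 methyltransferase genes higher and 5 lower (ASH1L 1.18, PRMT6 -3.05), 0 of 3 DNA methylation genes higher and 2 lower (UHRF1 -1.75, ZBTB33 -1.36), and 1 of 8 histone chaperone genes higher and 6 lower (NAP1L1 1.11, ASF1A -2.66). Of the highest genes named here only PCGF2 and CECR2 exceed the mitochondrial value of 2.07, so the others were below 0 on that scale. PCGF2 and CECR2 had average levels of only 2.74 and 1.23 (log2 CPM) and implied standard errors of 0.66 and 0.58 with 955.

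**Figure D5:**
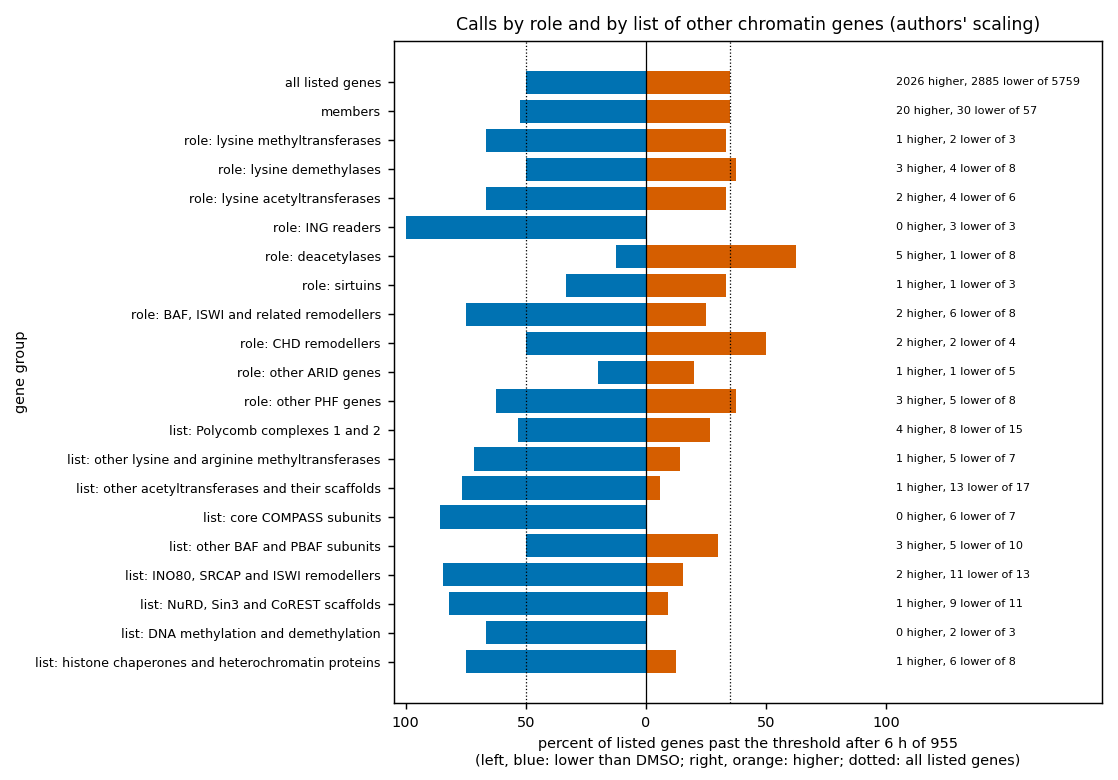
Share of listed genes past the threshold after 6 h of 955 (x axis, percent; left lower, right higher than DMSO) for all listed genes, the 57 members, their roles and 9 lists of other chromatin genes (y axis), with dotted lines at the shares of all listed genes, 50.1% and 35.2%. Under the authors' scaling, deacetylases have 5 of 8 genes higher (under mitochondrial scaling 0 are past the threshold upwards), while ING, COMPASS and DNA methylation genes have none higher.

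The gene spans of higher and lower members overlapped. In GENCODE 29 the 20 members higher after 6 h of 955 spanned a median of 40.4 kb (6.05 to 184) and the 30 lower 44.2 kb (4.7 to 435), with medians of 16.5 and 15.5 exons in the longest transcript. For all listed genes past the threshold the medians were 27.1 kb and 23.4 kb, with 10 and 7 exons. The 8 members lower at 1 h spanned a median of 61.3 kb with 9.5 exons, against 16.1 kb and 4 exons for all listed genes lower at 1 h. Exons of 22 of the 57 members overlap an exon of another annotated gene by at least 50 bases, 19 of them on the opposite strand. Among these are KAT5 (RNASEH2C), SIRT3 (PSMD13), ARID4B (GGPS1), KDM5A (CCDC77), BRD7 (ADCY7), PHF10 (C6orf120), KAT14 (PET117, same strand) and BRD3OS (BRD3). The use of strand in counting is not given in the sources used here, so these values may include reads of the neighbour. Without the 22, 13 members were higher and 17 lower of 35 after 6 h of 955.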

How the data were processed

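RNA sequencing of MOLT4 cells covered 12 samples in 4 groups of 3. The labels do not say that replicates were separate cultures, so p-values measure the spread between these samples, which may be technical. Per the file headers, the authors deposited log2 fold changes against DMSO, average log2 CPM over all samples, an F statistic (a score), p-values and false discovery rates. Base 2 was read from the values. The submitters' processing notes name hg38 and DESeq2, and the deposited columns do not say which tool made them; aligner, counter, strand use and depth are not given in the sources used here.

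RefSeq names matched 5727 of 5759 gene IDs, and spans and exons came from GENCODE 29. The denominator degrees of freedom of each gene were recovered from F and p. Contrasts of treated groups used the difference of the fold changes, a standard error equal to the root mean square of both implied standard errors, a t distribution and Benjamini-Hochberg adjustment over the 5759 listed genes (SciPy 1.17.1, pandas 2.3.3), tested on simulated data. Because genes enter the table by having changed, this adjustment does not cover every gene the authors tested. The members and lists were chosen with earlier results of these data known. Every member is described. Examples from the other lists are the highest and lowest values past the threshold after 6 h of 955, and some of these and of the marker values are not reported here. Alternatives changed the threshold, scaling, level filter, standard error and member set. Values per sample were not analysed here.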

Additional observations from a re-analysis of the deposited data

Results flagged for a closer look

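A difference between the 6 h and 1 h responses to 955 was found by the direct contrast for 34 of the 57 members. This is 59.6%, against 62.7% of all listed genes, so the share lay near the background. Under the authors' scaling 19 were higher and 15 lower, under mitochondrial scaling 3 and 31, and on the median listed gene, where 29 passed, 27 and 2. Among those lower at 6 h than at 1 h, the acetyltransferase genes KAT5 and KAT14 differed by -2.17 and -1.79 and the demethylase genes KDM4D and KDM8 by -2.04 and -1.11. Remodeller genes gave -1.71 for SMARCA5, -1.58 for CHD4, -1.40 for BRD7 and -1.22 for SMARCAL1. The deacetylase gene HDAC2 gave -1.49, the readers ING3 and ING2 -1.34 and -1.18, and PHF5A, PHF6 and PHF20 -1.96, -1.36 and -1.01. BRD3OS gave -2.02.

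Among those higher at 6 h than at 1 h, the demethylase genes KDM7A, KDM6B and KDM4B differed by 2.92, 1.62 and 1.27, and the deacetylase genes HDAC5, HDAC7 and HDAC11 by 2.55, 1.99 and 1.63. CHD3 and CHD5 gave 2.12 and 1.40, SIRT3 and SIRT4 1.34 and 1.25, SETD7 1.99 and KAT2B 1.36. The ARID genes gave 1.68 for ARID3B, 1.51 for ARID3A, 1.18 for ARID5B and 1.12 for ARID4B, and the PHF genes 2.66 for PHF21B, 1.28 for PHF1 and 1.13 for PHF19. ARID4B and ARID5B are in the table through their 1 h values alone, and SIRT4 and ARID3B through their values with SNS-032 alone. HDAC11 is there through its value after 6 h of 955 alone. The other genes named as higher or lower, apart from ING2, passed the threshold at 6 h and not at 1 h. Their differences are thus not independent of how they entered the table. Time in culture was not tested, since the vehicle was collected at 6 h alone.

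Between 955 and SNS-032 at 6 h, SIRT4 differed by -2.21, at doses that were not matched; its value with SNS-032 alone put it in the table, so the difference is a description and not a test.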

How the results depend on the processing

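No paired analysis was possible because the table holds the authors' comparisons and no values per sample; leaving out replicates, the replicate block and count models on other normalizations were not run for the same reason. After 1 h of 955, the 8 members past the threshold became 14 without a fold-change bound, 0 at a bound of 2, 5 at an adjusted p under 0.01, 27 under mitochondrial scaling and 3 without the PHF and ARID genes. After 6 h of 955, 50 became 12 at a bound of 2 and 31 on the median listed gene, and after SNS-032 48 became 14 at a bound of 2. Between the compounds, 1 became 0 at an adjusted p under 0.01, at a level of at least 3 and when the standard error left the shared control out of account. Between 6 h and 1 h, 34 became 52 without the bound and 7 at a bound of 2. Without the 22 members that share exon sequence with another gene, a choice made after seeing the data, the counts were 30 with 955 at 6 h, 31 with SNS-032 and 21 between the times, of 35 members.

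A value is called reversed here if it was past the threshold under the authors' scaling and then changed sign. Mitochondrial scaling reversed 15 members after 6 h of 955: ARID3A (-0.77), CHD5 (-0.30), HDAC1 (-1.06), HDAC10 (-0.93), HDAC11 (-0.82), KAT2A (-0.88), KAT2B (-0.41), KDM4B (-1.0), KDM6B (-0.74), PHF1 (-0.89), PHF10 (-0.74), PHF19 (-0.91), SETD7 (-0.41), SIRT3 (-0.50) and SMARCD3 (-0.64). It reversed 19 after SNS-032: ARID3A (-1.14), ARID3B (-1.31), CHD5 (-0.96), HDAC1 (-1.25), HDAC10 (-0.90), HDAC3 (-1.30), HDAC6 (-1.34), HDAC7 (-0.17), KAT2A (-1.01), KAT2B (-0.66), KDM4B (-1.25), KDM6B (-1.02), PHF1 (-1.29), PHF10 (-0.84), PHF19 (-1.20), SETD7 (-0.59), SIRT3 (-0.67), SIRT4 (-0.57) and SMARCD3 (-0.77). It reversed 8 differences between 6 h and 1 h: ARID4B (-0.27), ARID5B (-0.21), KAT2B (-0.04), KDM4B (-0.13), PHF1 (-0.12), PHF19 (-0.27), SIRT3 (-0.06) and SIRT4 (-0.15). Scaling on the median listed gene reversed KAT6A with SNS-032 (0.01). Values not past the threshold at first also changed sign and are not in these counts. With 955 at 6 h, mitochondrial scaling took ARID3B (-1.28), ARID4B (-1.99), HDAC3 (-1.17) and HDAC6 (-1.11) below 0. With SNS-032, the median listed gene took KDM2A (0.71), KDM5A (0.43), KAT6B (0.14), SETD1B (0.14), KDM4A (0.13) and SMARCAD1 (0.13) above 0. Which scaling is nearer to RNA per cell was not tested.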
